A study of Mus musculus with 9 samples.

Results

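The 37 genes carried by the mouse mitochondrial genome were followed through 9 RNA-seq libraries of sorted T cells. They were taken from the count tables by their symbol, as all genes whose mouse symbol begins with mt-, and were 37 of the 32976 genes in each table. Of these, 13 encode proteins, 2 encode ribosomal RNAs and 22 encode transfer RNAs, and the 3 classes are described apart.

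The T cells came from CT26 tumors, a colorectal carcinoma line of BALB/c origin grown under the skin of BALB/c mice. All mice carried the wildtype genotype and all had received PD-1 antibodies (Clone RMP1-14) by intraperitoneal injection 3, 6 and 9 days after implantation, so that no untreated group was present. CD8+CD44+ cells were sorted by how strongly they bound a tetramer of GSW11, a tumor-derived peptide, as a measure of T cell receptor avidity. TetHighProg libraries (replicates 1, 2 and 5) held high avidity cells of progressing tumors, TetLowReg libraries (replicates 6, 7 and 8) low avidity cells of regressing tumors, and TetLowProg libraries (replicates 9, 10 and 12) low avidity cells of progressing tumors. Wherever 3 values of a group are given, they follow this order of replicates. The age of the mice was not given in the sources used here. By the study's account the TetHighProg and TetLowProg cells appear to come from the same progressing tumors, but the labels do not tie a high to a low avidity library, so tests between these 2 groups treat as separate samples libraries that may share a tumor.

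The mitochondrial genome is a small circle of DNA that is transcribed from both strands into long RNAs, which are cut mostly at the tRNAs to release the mRNAs and rRNAs. Its proteins are core subunits of the respiratory chain and of ATP synthase, and every other subunit is encoded in the nucleus. CD8+ T cells depend on respiration for their persistence, and the state of the mitochondria is much studied in exhausted T cells of tumors.

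Each library held 16405306 to 36429515 gene counts, but from 599 to 8071 genes with at least 10 counts, and 4 libraries had fewer than 1500 such genes (replicates 1, 2, 6 and 10). The 14 T cell markers took 0.234% to 1.15% of gene counts, and 4 to 14 of them reached 10 counts. Each library had counts of Cd8a or Cd8b1, but Cd8b1 had 8 counts in TetLowReg replicate 6 and Cd8a was at 0 in TetHighProg replicates 1 and 2 and in TetLowProg replicate 10. The 8 B cell markers took 0.312%, 0.263% and 0.349% of gene counts in TetLowReg replicates 7 and 8 and TetLowProg replicate 12, and 0.0242% or less in the other libraries.

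Not every mitochondrial gene could be counted, because a stretch of the mitochondrial genome is also present in the nuclear genome. In GRCm39, 4649 bases of the mitochondrial genome (chrM:6394-11042) recurred on the minus strand of chromosome 1 (chr1:24650616-24655265) in 3 exact stretches of 3067, 367 and 1222 bases. The tables left out reads that mapped to several places, and such reads were 7.51% to 14.5% of a library. The start of mt-Co2, mt-Atp6 and mt-Co3 is shown beside its copy to let the identity be read base by base, with the first codon in capitals, and the start of mt-Cytb, for which no exact nuclear copy of 75 bases was found, is shown for comparison.

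mt-Co2 (chrM:7013-7072, plus strand): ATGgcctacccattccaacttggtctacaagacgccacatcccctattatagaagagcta
mt-Co2 copy (chr1:24654587-24654646, minus strand): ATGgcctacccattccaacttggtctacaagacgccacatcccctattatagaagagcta
mt-Atp6 (chrM:7927-7986, plus strand): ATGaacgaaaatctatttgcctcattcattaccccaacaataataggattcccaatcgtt
mt-Atp6 copy (chr1:24653673-24653732, minus strand): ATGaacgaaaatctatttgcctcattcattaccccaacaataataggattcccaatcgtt
mt-Co3 (chrM:8607-8666, plus strand): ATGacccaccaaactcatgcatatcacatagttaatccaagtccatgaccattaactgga
mt-Co3 copy (chr1:24652993-24653052, minus strand): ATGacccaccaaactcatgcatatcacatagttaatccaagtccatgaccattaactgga
mt-Cytb (chrM:14145-14204, plus strand): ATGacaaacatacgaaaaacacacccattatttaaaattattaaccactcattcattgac

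In GRCm39 the copy differed from the mitochondrial genome at 2 places. One was a substitution, T3C, in the first codon of mt-Nd3, with the mitochondrial base first and positions counted from 1 at the first base of the gene. The other was the length of a run of A in the arginine tRNA gene mt-Tr, which had 8 bases in the mitochondrial genome and 9 in the copy. Both places are shown in capitals. Whether they also differ in BALB/c mice was not tested.

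mt-Nd3 (chrM:9459-9518, plus strand): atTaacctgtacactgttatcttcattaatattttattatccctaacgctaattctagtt
mt-Nd3 copy (chr1:24652141-24652200, minus strand): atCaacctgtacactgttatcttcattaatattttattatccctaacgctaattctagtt
mt-Tr (chrM:9808-9875, plus strand): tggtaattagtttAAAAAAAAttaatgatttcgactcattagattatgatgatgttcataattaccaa
mt-Tr copy (chr1:24651783-24651851, minus strand): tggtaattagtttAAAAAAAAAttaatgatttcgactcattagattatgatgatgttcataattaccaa

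Of the 37 genes, 11 lay wholly inside the copied stretch: the protein genes mt-Co2, mt-Atp8, mt-Atp6, mt-Co3, mt-Nd3 and mt-Nd4l and the tRNA genes mt-Ts1, mt-Td, mt-Tk, mt-Tg and mt-Tr. Together they held 12 counts over the 9 libraries. Of these, 11 were on mt-Tr in TetLowReg replicate 7 and 1 was on mt-Co3 in TetLowProg replicate 12, and the other 9 genes were at 0 in every library. A count of 0 over the 249279641 gene counts of all libraries allows a share of up to 1.20e-06%, but this limit describes reads assigned to the gene and not its RNA, which these tables do not measure. mt-Co1 had 479 of its 1545 bases inside the copy and mt-Nd4 had 876 of 1378, and both kept counts from the rest of the gene. Of the 24 genes with no base in the copy, 4 were at 0 in every library, all of them tRNA genes (mt-Tw, mt-Tn, mt-Ty and mt-Th). In all, 137 exact matches of 31 bases or more were found, the 3 above included, and shorter copies of the tRNA cluster beside mt-Co1 lay on chromosome 2. The stretch on chromosome 1 holds 8 annotated nuclear genes, of which 1 was in the tables, with 0 counts.

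**Figure D1:**
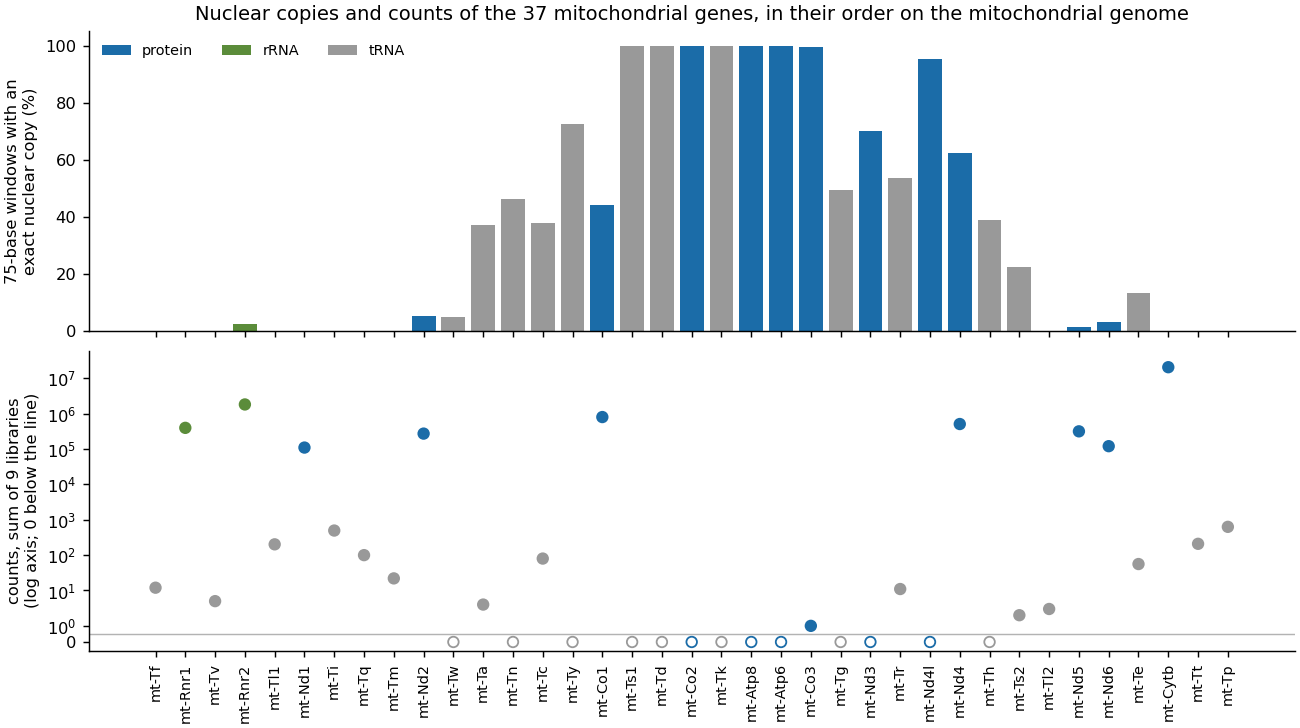
Upper panel, percent of the 75-base windows touching each of the 37 mitochondrial genes that have an exact copy in the nuclear genome; lower panel, counts of each gene summed over 9 libraries on a log axis, with genes at 0 as open circles below the line. Genes run in their order on the mitochondrial genome, coloured by class, and the protein genes from mt-Co2 to mt-Nd4l, with 69.9% to 100% of windows copied, held 1 count in all, while mt-Cytb, with none copied, held 20652521.

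To compare genes, a countable length was therefore set for each, as the number of 75-base windows that touch that gene alone and have no exact nuclear copy. The read length was taken from the 75-cycle sequencing kit. The length of the counted reads was not measured. Of the tRNA genes, 11 without a countable 75-base window held counts. Each of them had windows of 38 bases, the length if the cycles were shared between paired reads. The 12 genes without a countable 38-base window held 1 count in all. The 38-base windows gave a level for the same genes, and both lengths are used below. The countable windows numbered 1075 for mt-Cytb, 1707 for mt-Nd5 and 1465 for mt-Rnr2, but 503 for mt-Nd4 and 886 for mt-Co1, and 0 for mt-Co2, mt-Co3, mt-Atp6, mt-Atp8 and mt-Nd4l. Complex V, the ATP synthase, thus had no countable gene, and 9 rRNA and protein genes could be given a level in CPM (counts scaled to the same total of gene counts in every library) per countable kilobase.

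By this level mt-Cytb was the highest of the 9 genes, with a median of 19139 CPM per countable kilobase and a range of 3403 to 373772 over the libraries. It was first in 7 of 9 libraries, after mt-Nd4 in TetLowReg replicate 6 and after mt-Rnr2 and mt-Co1 in TetLowProg replicate 9. The medians of the others, in the same unit, were 3333 for mt-Rnr2, 3262 for mt-Nd4, 2379 for mt-Co1, 1097 for mt-Rnr1, 955 for mt-Nd6, 935 for mt-Nd2, 459 for mt-Nd5 and 305 for mt-Nd1. With 38-base windows the median was 18876 for mt-Cytb and 3356 for mt-Co1, which then stood above mt-Nd4, and mt-Nd2 stood above mt-Nd6. The ranges over libraries overlapped for all 8 pairs of neighbours in the 75-base order, so that no neighbour stood apart beyond the spread. The order of the genes below mt-Cytb is therefore a description of medians.

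**Figure D2:**
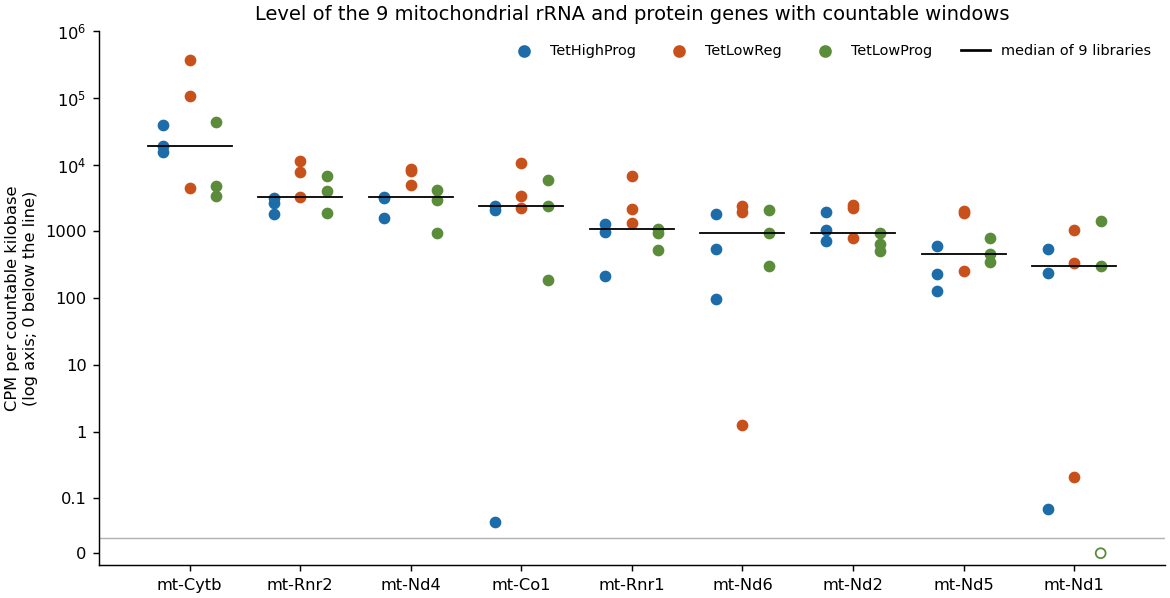
Level of the 9 mitochondrial rRNA and protein genes with countable windows, in CPM per countable kilobase on a log axis. Each point is a library, coloured by group, each black line the median of the 9 libraries, and an open circle below the line a library at 0; mt-Cytb spans 3403 to 373772, and mt-Co1, mt-Nd6 and mt-Nd1 each have libraries near or at 0.

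All mitochondrial genes together took a widely varying share of each library. The share of gene counts was 5.30%, 2.44% and 2.95% in the TetHighProg libraries. It was 1.65%, 44.5% and 14.2% in those of TetLowReg and 2.22%, 1.36% and 6.07% in those of TetLowProg. TetLowReg thus held the highest shares, in replicates 7 and 8, and also a share below every TetHighProg library, in replicate 6. The 95% Clopper-Pearson intervals reached at most 0.0168 percentage points to either side and cover counting error only, since PCR copies were counted as reads.

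The means were 3.56% ± 1.52 in TetHighProg, 20.1% ± 22.0 in TetLowReg and 3.22% ± 2.51 in TetLowProg (SD, n = 3 each). TetLowReg was 16.5 percentage points above TetHighProg (two-sided exact permutation test, p = 0.4) and TetLowProg differed from TetLowReg by -16.9 points (exact p = 0.3). TetLowProg and TetHighProg differed by -0.347 points (exact p = 0.8). The groups overlapped in all 3 comparisons, and an exact test of 3 libraries against 3 cannot give a p under 0.1. Without TetLowReg replicate 7 the first difference was 4.34 points, and without TetLowReg replicate 6 it was 25.8 points. The difference of TetLowProg from TetLowReg was -4.69 and -26.1 points without the same libraries.

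The 3 libraries with the highest mitochondrial shares, TetLowReg replicates 7 and 8 and TetLowProg replicate 12, also carried the B cell markers given above. TetLowReg replicates 7 and 8 had the lowest T cell marker shares, 0.234% and 0.282%, against 0.468% or more in the other libraries. Of 7 markers of CD4 T cells and regulatory T cells, 5, 3 and 3 reached 10 counts in the 3 libraries. At most 1 did in any other, that of TetLowProg replicate 9 being Ctla4 with 8764 counts. Cd4 had 2020 counts in TetLowReg replicate 7 and Foxp3 had 585 in TetLowReg replicate 8. In TetLowProg replicate 12, Cd4 had 2 counts and Foxp3 0, and the 3 markers found were Ctla4, Il2ra and Ikzf2. The 3 libraries had 8004, 7234 and 6443 genes with at least 10 counts, but TetLowProg replicate 9, at a mitochondrial share of 2.22%, had the most of all with 8071. Erythroid markers took 0.00312%, 0.00334% and 0.00696% of their gene counts, with 3 of the 6 markers in the tables at 10 counts or more (Hba-a1, Hba-a2 and Hbb-bs), and held at most 1 count in any other library. The 14 macrophage and dendritic cell markers took 0.840%, 0.123% and 0.0626% of gene counts in these 3 libraries, and 0.154% in TetHighProg replicate 1. These sums were mostly Lyz2, with 97.9%, 96.0% and 91.7% of them in the 3 libraries and all but 1 count in TetHighProg replicate 1, while C1qa was at 0 in every library. Of the 14 markers, 5, 5 and 3 reached 10 counts in the 3 libraries, 3 in TetLowProg replicate 9 and at most 1 elsewhere, with Cd68 at 6085 in TetLowReg replicate 7 and Itgam at 1473 in TetLowProg replicate 12. Neutrophil markers, 7 in number, took 0.0147% in TetLowReg replicate 7 and at most 9.75e-05% elsewhere. Of the 5372 counts in TetLowReg replicate 7, 5311 were on Cxcr2, while S100a8, Ly6g, Mmp8 and Retnlg were at 0. Markers of CT26 tumor and stroma, 12 in number, took 0.00120%, 0.00443% and 0.00102% in the 3 libraries. TetHighProg replicate 1 had the highest share, 0.0387%, with 12437 of 12938 counts on Col1a2. Of these markers, 4, 6 and 2 reached 10 counts in the 3 libraries and at most 3 in any other. The 6 NK cell markers took 0.00453% in TetLowProg replicate 9 and at most 0.000579% elsewhere, with none in TetLowReg replicate 7 and TetLowProg replicate 12. The part of these cell types in the mitochondrial shares was not tested, and in bulk libraries fewer cells of a type and less RNA per cell cannot be told apart.

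**Figure D3:**
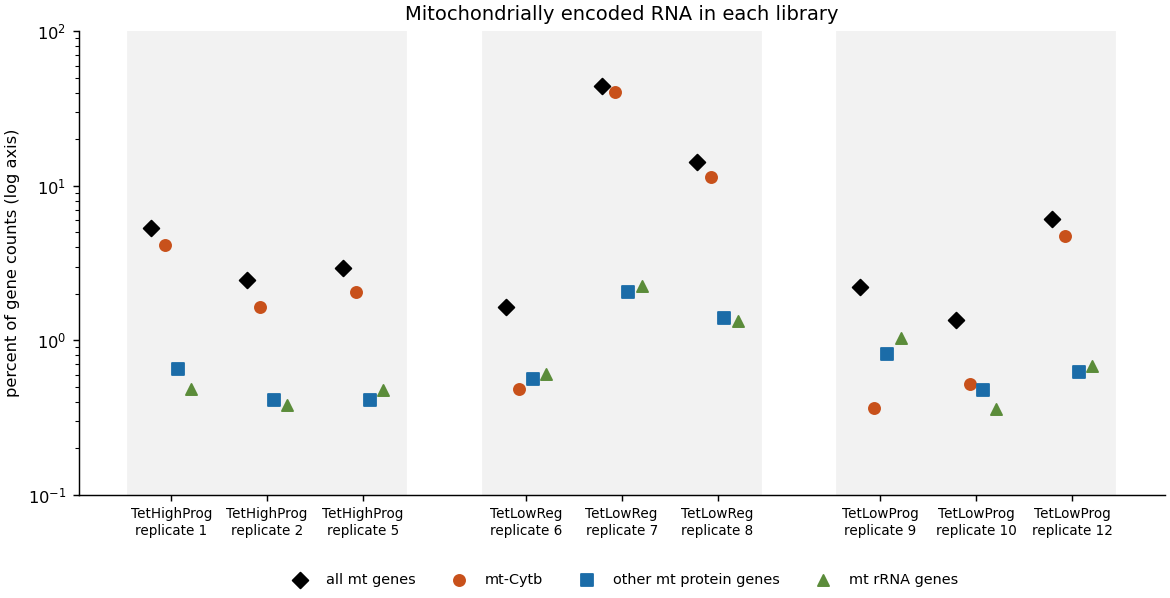
Percent of gene counts, on a log axis, taken by all mitochondrial genes, by mt-Cytb, by the other protein genes and by the 2 rRNA genes in each of the 9 libraries, with a grey band for each group. In TetLowReg replicate 7 the mitochondrial genes took 44.5% of gene counts, of which mt-Cytb alone was 40.2%, and the rRNA genes of TetLowReg lay at 0.606% to 2.25%, all above the 0.384% to 0.484% of TetHighProg.

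The 2 rRNA genes encode the 12S (mt-Rnr1, chrM:70-1024) and 16S (mt-Rnr2, chrM:1094-2675) RNAs of the mitochondrial ribosome. Their joint share of gene counts was 0.484%, 0.384% and 0.480% in the TetHighProg libraries. It was 0.606%, 2.25% and 1.34% in those of TetLowReg and 1.03%, 0.362% and 0.685% in those of TetLowProg. Every TetLowReg library was above every TetHighProg library, while TetLowProg had 1 library below and 2 above the range of TetHighProg.

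TetLowReg exceeded TetHighProg by 0.9495 percentage points (1.40% ± 0.823 against 0.450% ± 0.0566, SD, n = 3 each), with the smallest p an exact permutation test allows here (exact p = 0.1, two-sided). Leaving out any 1 library gave differences of 0.524 to 1.35 points, the lowest without TetLowReg replicate 7. Without the 4 libraries of few genes, which leaves 1 TetHighProg library, the difference was 1.32 points. TetLowProg was 0.244 points above TetHighProg (exact p = 0.4) and differed from TetLowReg by -0.706 points (exact p = 0.3). The former was 0.0739 points without TetLowProg replicate 9 and 0.410 without TetLowProg replicate 10, and the latter -0.280 without TetLowReg replicate 7 and -1.10 without TetLowReg replicate 6.

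mt-Rnr2 counts were 155587, 68744 and 89418 in the TetHighProg libraries, 107620, 601191 and 188740 in those of TetLowReg and 358773, 70138 and 185303 in those of TetLowProg. mt-Rnr1 had 6275, 28550 and 19460 counts in TetHighProg, 25903, 218343 and 31364 in TetLowReg, and 16735, 20819 and 30491 in TetLowProg, in the same order of replicates. Relative to gene counts, each rRNA was higher in every TetLowReg library than in every TetHighProg library, by a small margin in TetLowReg replicate 6. The 2 rRNAs did not keep a fixed proportion, since the counts of mt-Rnr2 were 24.8 and 21.4 times those of mt-Rnr1 in TetHighProg replicate 1 and TetLowProg replicate 9 and 2.41 to 6.08 times in the other 7 libraries. Per countable kilobase the same ratio ran from 1.45 to 14.9.

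Among the protein genes, mt-Cytb (chrM:14145-15288), which encodes cytochrome b of complex III, dominated. Its counts were 1390764, 415745 and 466814 for TetHighProg. TetLowReg had 106677, 14637551 and 1873003 counts, and TetLowProg had 132939, 130577 and 1498451. Its share of gene counts ran from 0.366% in TetLowProg replicate 9 to 40.2% in TetLowReg replicate 7, where it was the gene with the most counts of all, as it was in TetLowReg replicate 8 with 11.4%. The libraries of TetLowReg lay on both sides of those of TetHighProg, and so did those of TetLowProg.

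Within the protein genes, mt-Cytb made up 86.5%, 80.0% and 83.3% of counts in TetHighProg, 46.3%, 95.1% and 89.1% in TetLowReg and 30.98%, 52.0% and 88.4% in TetLowProg, in the order of replicates above. It ran from 80.0% to 86.5% in TetHighProg and spread widely within each low avidity group. Without mt-Cytb the libraries spanned 0.798% to 4.32% in place of 1.36% to 44.5%. All other mitochondrial genes then took 1.13%, 0.798% and 0.894% of gene counts in TetHighProg, 1.17%, 4.32% and 2.75% in TetLowReg and 1.85%, 0.841% and 1.31% in TetLowProg. This comparison was chosen after the values were seen. TetLowReg was 1.80 points above TetHighProg with no overlap (exact p = 0.1), although TetLowReg replicate 6 and TetHighProg replicate 1 nearly met, and TetLowProg was 0.393 points above TetHighProg (exact p = 0.3).

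Complex I, the NADH dehydrogenase through which electrons enter the chain, is represented by 7 mitochondrial genes, of which 5 had counts. mt-Nd4 counts were 54816, 40656 and 18103 in the TetHighProg libraries, 54248, 160049 and 65778 in those of TetLowReg and 17529, 52677 and 46575 in those of TetLowProg. Relative to gene counts, every TetLowReg library was above every library of both other groups, with 3621 ± 1023 CPM against 1348 ± 477 in TetHighProg and 1352 ± 814 in TetLowProg (SD, n = 3 each; exact p = 0.1 for each comparison with TetLowReg). mt-Nd2 was found in every library, with 14535 to 73108 counts, and mt-Nd5 likewise, with 5564 to 117899.

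mt-Nd1 and mt-Nd6, further subunits of complex I, were at or near 0 in single libraries. mt-Nd1 counts were 2, 12058 and 4758 in the TetHighProg libraries, 4, 33867 and 4887 in those of TetLowReg and 46175, 0 and 8454 in those of TetLowProg. mt-Nd6, the only mitochondrial protein gene read from the light strand, had 12 counts in TetLowReg replicate 6 and 1058 to 30706 elsewhere. The low libraries for mt-Nd1 were 3 of the 4 with fewer than 1500 genes found, 1 in each group.

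Complex IV, cytochrome c oxidase, was represented by its catalytic subunit mt-Co1 (chrM:5328-6872). Its counts were 70410, 1 and 42334 in the TetHighProg libraries, 43818, 337414 and 48878 in those of TetLowReg and 189426, 4211 and 67369 in those of TetLowProg. The single count in TetHighProg replicate 2 stood beside 415745 counts of mt-Cytb in the same library. As a share of mitochondrial protein counts, complex IV ran from 0.000192% in that library to 44.1% in TetLowProg replicate 9, where mt-Co1 exceeded mt-Cytb. The groups overlapped for mt-Co1 in all 3 comparisons (exact p = 0.2, 0.5 and 0.5 on log2 CPM).

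**Figure D4:**
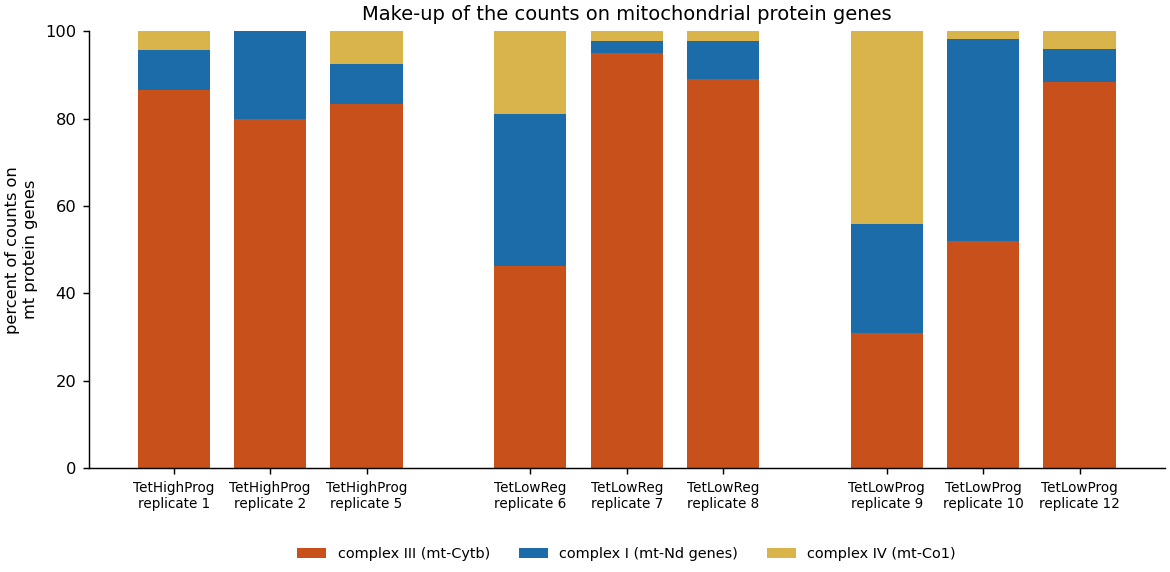
Make-up of the counts on mitochondrial protein genes in each library, as percent of those counts on complex III (mt-Cytb), complex I (mt-Nd genes) and complex IV (mt-Co1); bars start at 0 and sum to 100. Complex III ran from 30.98% in TetLowProg replicate 9 to 95.1% in TetLowReg replicate 7, and complex I from 2.701% in the latter to 46.3% in TetLowProg replicate 10.

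The make-up of the mitochondrial counts was then compared. Complex I made up 12.8% ± 6.29 of mitochondrial protein counts in TetHighProg, 15.3% ± 17.0 in TetLowReg and 26.3% ± 19.4 in TetLowProg (SD, n = 3 each), with exact p from 0.4 to 1.0. TetLowProg was 13.5 points above TetHighProg and 10.95 above TetLowReg, values that became 3.48 and 0.928 without TetLowProg replicate 10 and 22.8 and 20.3 without TetLowProg replicate 12. Leaving out TetLowReg replicate 7 or 6 took the latter to 4.63 or 20.6. Complex IV made up 3.98% ± 3.79, 7.85% ± 9.68 and 16.6% ± 23.9 in the same order (exact p = 0.7 in each comparison). The rRNAs made up 13.7% ± 3.97, 17.1% ± 17.1 and 28.2% ± 17.7 of mitochondrial counts (exact p from 0.3 to 0.9). The rRNA difference of TetLowProg was 14.4 points against TetHighProg and 11.1 against TetLowReg, and fell to 5.22 and 1.87 points without TetLowProg replicate 9. It was 22.9 against TetHighProg without TetLowProg replicate 12, and against TetLowReg it was 5.08 to 20.9 with a TetLowReg library left out. The groups overlapped in all 9 of the comparisons on all genes.

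Mitochondrial protein counts were also set against those of the nuclear subunits of the respiratory chain and ATP synthase. The log2 ratio of mitochondrial protein counts to the counts of 79 nuclear subunit genes was 2.83, 0.57 and 1.65 in the TetHighProg libraries. It was 0.13, 6.29 and 4.39 in those of TetLowReg and 0.22, 1.36 and 2.26 in those of TetLowProg. The nuclear subunits themselves took 0.390% to 1.39% of gene counts, and the mitochondrial protein genes 0.999% to 42.2%. The group differences in the log2 ratio were 1.92 for TetLowReg against TetHighProg, -0.41 for TetLowProg against TetHighProg and -2.32 for TetLowProg against TetLowReg (exact p = 0.4, 0.7 and 0.4). Leaving out TetLowReg replicate 7 took the first to 0.58 and the last to -0.98, and leaving out TetLowReg replicate 6 took them to 3.66 and -4.06. Without mt-Cytb, an alternative chosen after the values were seen, the differences were 1.70, 0.62 and -1.08 (exact p = 0.2, 0.4 and 0.3), so that the second turned.

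The 22 tRNA genes held few counts, from 0 to 1004 per library, or 22, 496 and 76 in the TetHighProg libraries, 0, 107 and 57 in those of TetLowReg and 1004, 3 and 68 in those of TetLowProg. At least 1 count was seen for 14 of the 22 genes and none for 8. A single gene made up over 50% of the tRNA counts in 6 of the 8 libraries that had any, but not in TetLowReg replicate 7 (mt-Tc, 45 of 107) or TetLowProg replicate 12 (mt-Tp, 20 of 68). The isoleucine tRNA gene mt-Ti had 496 counts in TetHighProg replicate 2 and 0 in every other library, and the proline tRNA gene mt-Tp had 568 in TetLowProg replicate 9. The share of gene counts on tRNA genes overlapped between the groups in all 3 comparisons (exact p from 0.5 to 0.9). With the 2 strand-specific columns summed, the difference between TetLowProg and TetHighProg went from 0.000210 to 0.00237 percentage points, and that between TetLowReg and TetHighProg turned from -0.000573 to 0.000597.

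Most tRNA genes directly adjoin their neighbours, and a read that touches 2 genes is left out of the unstranded counts. No 75-base window touched mt-Ti alone and 27 windows of 38 bases did, while for mt-Tp it was 67 at either length. Both are shown for this contrast, with the bases that mt-Ti shares with mt-Nd1 (2 bases) and mt-Tq (3 bases) in capitals, and mt-Tp, which shares none, in lower case.

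mt-Ti (chrM:3706-3774, plus strand): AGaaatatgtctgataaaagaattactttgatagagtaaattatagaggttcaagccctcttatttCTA
mt-Tp (chrM:15356-15422, minus strand): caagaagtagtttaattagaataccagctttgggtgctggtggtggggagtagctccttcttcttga

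Strand could not be used to part the 2 strands of the mitochondrial genome. In the 2 strand-specific columns of the tables, 48.3% to 49.7% of mitochondrial counts fell in the same column in every library. For mt-Cytb the percent was 49.3% to 49.6% and for the light strand gene mt-Nd6 37.8% to 57.7%, so RNA of a gene and RNA from the opposite strand cannot be told apart.

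Counts were then tested gene by gene across the whole tables with the quasi-likelihood test of edgeR, and 5813 genes passed the filter on low counts. Of the 37 mitochondrial genes, 11 passed: both rRNA genes, mt-Nd1, mt-Nd2, mt-Nd4, mt-Nd5, mt-Nd6, mt-Cytb, mt-Co1, and the tRNA genes mt-Te and mt-Tp. None was called at an adjusted p under 0.05 with an absolute log2 fold change above 2 in any of the 3 comparisons, against 0.0% of all genes tested in each. In data simulated for TetLowReg against TetHighProg with the spread of these libraries, 200 genes were changed 16-fold and edgeR called none of them. The absence of a call therefore says little about whether a gene differed. At an unadjusted p under 0.05, 1 of the 11 passed in each comparison, against 19.5% of all genes for TetLowReg against TetHighProg, 25.4% for TetLowProg against TetHighProg and 0.929% for TetLowProg against TetLowReg. That gene was mt-Cytb in the first and the last, and mt-Tp in the second.

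Fold changes of the tested members are given beside those of all genes tested. Their median log2 fold change was 1.86 for TetLowReg against TetHighProg, where the median of all genes tested was 3.52, and 0.20 for TetLowProg against TetHighProg, where it was 4.27. For TetLowProg against TetLowReg the medians were -1.94 and 0.35. Fold changes were above 0 for 11, 7 and 2 of the 11 members, against 72.7%, 73.5% and 55.5% of all genes. Both comparisons with TetHighProg share its libraries, and both comparisons with TetLowReg share those.

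For mt-Cytb the log2 fold change was 3.25 (SE 0.94) for TetLowReg against TetHighProg, with an adjusted p of 0.233 by edgeR. It was -0.72 (SE 0.86, adjusted p = 0.663) for TetLowProg against TetHighProg and -3.97 (SE 0.97, adjusted p = 0.249) for TetLowProg against TetLowReg. Without TetLowReg replicate 7 the first was 1.31 (adjusted p = 0.655 by edgeR) and the last -1.75. For TetLowProg, leaving out replicate 12 gave -2.66 against TetHighProg and -6.11 against TetLowReg, and leaving out replicate 9 turned the former to 0.0569. The libraries of the groups overlapped in each comparison, and the exact permutation test on log2 CPM gave p = 0.6, 0.4 and 0.3. Other models called it in part. For TetLowReg against TetHighProg, limma-voom with quality weights called mt-Cytb and mt-Co1 among 41.5% of all genes tested, and edgeR on these 2 groups alone called mt-Cytb among 0.0791%. DESeq2 with poscounts size factors called mt-Cytb for TetLowProg against TetHighProg among 18.7% of all genes, and with them its sign turned for TetLowReg against TetHighProg (-0.53). For TetLowProg against TetLowReg, edgeR on the 2 groups alone called it among 0.0182%. DESeq2 with its default size factors called no member in any comparison, among 29.4%, 35.6% and 0.464% of all genes, and in the data simulated for the first comparison most of its calls were genes that had not been changed.

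The other genes named for their class had large standard errors. For mt-Rnr2 the log2 fold changes were 1.86 (SE 1.71), 0.20 and -1.66 in the order TetLowReg against TetHighProg, TetLowProg against TetHighProg and TetLowProg against TetLowReg. Those of mt-Nd4 were 1.498 (SE 2.19), -0.44 and -1.94, and those of mt-Co1 2.51 (SE 2.13), 0.57 and -1.95. No complex V gene was tested. Without TetLowReg replicate 7 the first and last were 1.08 and -0.12 for mt-Co1, 1.16 and -0.53 for mt-Rnr2 and 1.17 and -1.28 for mt-Nd4. Adjusted p-values for TetLowReg against TetHighProg were 0.464 for mt-Co1, 0.513 for mt-Rnr2 and 0.750 for mt-Nd4 by edgeR.

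In CPM, 3 of the 11 tested members did not overlap between TetLowReg and TetHighProg, against 5.8% of all genes tested: mt-Rnr1, mt-Rnr2 and mt-Nd4, all higher in TetLowReg. None of the 11 was free of overlap between TetLowProg and TetHighProg (7.17% of all genes). Between TetLowProg and TetLowReg it was 2 of 11, mt-Rnr1 and mt-Nd4, both lower in TetLowProg (3.42% of all genes). The exact p was 0.1 for each, the smallest possible. For mt-Rnr1, TetLowReg replicate 6 held 0.118% of gene counts against 0.113% in TetHighProg replicate 2. For mt-Rnr2 it held 0.488% against 0.466% in TetHighProg replicate 1. These CPM did not use the TMM factors, which were 0.601 in TetHighProg replicate 2 and 1.20 in TetLowReg replicate 6. Whether the groups stay apart with these factors was not tested.

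The nuclear genes that make and maintain mitochondrial RNA were followed as lists. Of 30 genes for mitochondrial RNA processing and decay, 0 to 3 reached 10 counts in TetHighProg libraries, 2 to 16 in TetLowReg and 3 to 22 in TetLowProg. Trmt10c, a subunit of the RNase P that cuts mitochondrial tRNAs free, had 1, 0 and 0 counts in TetHighProg, 67730, 6 and 1757 in TetLowReg and 1854, 1 and 2752 in TetLowProg. Angel2 had 0 to 2173 counts in TetHighProg, 0 to 11903 in TetLowReg and 2339 to 78394 in TetLowProg. The list was 13 of 30 tested, with 5 genes at an unadjusted p under 0.05 in each comparison with TetHighProg, all 5 positive, and none called. Over all genes tested, 19.5% (TetLowReg) and 25.4% (TetLowProg) passed that p, and 72.7% and 73.5% had a positive fold change.

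Of 21 genes for transcription and upkeep of mitochondrial DNA, 1 to 4 reached 10 counts in TetHighProg libraries and 1 to 11 in those of both other groups. Polg2, the accessory subunit of the mitochondrial DNA polymerase, had 6414, 23912 and 30535 counts in TetHighProg, 0, 2850 and 5292 in TetLowReg and 2508, 52334 and 4696 in TetLowProg. Polg, its catalytic subunit, had 12297 counts in TetHighProg replicate 5 and 2237 in TetLowProg replicate 9 but at most 31 elsewhere. Of this list 7 genes were tested, 1 had an unadjusted p under 0.05 in each comparison with TetHighProg (19.5% and 25.4% of all genes), and none was called.

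The list of 20 genes that charge the tRNAs above held 19 aminoacyl-tRNA synthetases, of which Gars1 and Kars1 also serve the cytosol, and Qrsl1. The synthetases took 1.18e-05% to 0.0594% of gene counts in TetHighProg, 3.18e-05% to 0.102% in TetLowReg and 0.0690% to 0.155% in TetLowProg. Lars2, the leucine enzyme, had 30350 and 14575 counts in TetLowProg replicates 9 and 12, 11626 in TetLowReg replicate 7 and 876 or fewer in the other libraries. Qrsl1, a subunit of the enzyme that makes mitochondrial glutaminyl-tRNA, had 51390 counts in TetLowProg replicate 10, 264 in replicate 12, 19 in TetLowReg replicate 8 and 0 elsewhere. Of this list 9 were tested, 2 and 3 had an unadjusted p under 0.05 in TetLowReg and TetLowProg against TetHighProg (19.5% and 25.4% of all genes), and none was called. For TetLowProg against TetLowReg 1 passed (0.929% of all genes), Qrsl1, whose counts in TetLowProg lay mostly in replicate 10.

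Of 11 mitochondrial translation factors 4 were tested and of 8 regulators of mitochondrial biogenesis 5 were tested, with none called. At an unadjusted p under 0.05, 0 of 4 translation factors and 2 of 5 regulators passed for TetLowReg against TetHighProg (19.5% of all genes), 1 of 4 and 0 of 5 for TetLowProg against TetHighProg (25.4%), and 0 of either for TetLowProg against TetLowReg (0.929%). Those that passed were Gabpa, a subunit of the activator named below, and the transcription factor Yy1 among the regulators, and the elongation factor Gfm1, all 3 named after their values were seen. Mtif2, the initiation factor, had 8083 counts in TetLowProg replicate 10 and at most 270 in any other library, and Gfm2, which recycles the mitochondrial ribosome, had 3058 in TetLowReg replicate 6 and at most 809 in any other. Gabpb1, a further subunit of that activator, which acts on nuclear respiratory genes, had 0, 1 and 87 counts in TetHighProg, 0, 139 and 66 in TetLowReg and 5969, 5478 and 3509 in TetLowProg. Pprc1, a coactivator, had 0 to 2872 counts over the 9 libraries. The number of genes found also differed between libraries, from 599 to 8071, and its part in these values was not tested.

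Detection of the mitochondrial genes themselves was counted last. Of the 37 genes, 9, 9 and 11 reached 10 counts in the TetHighProg libraries, 8, 12 and 10 in those of TetLowReg and 15, 8 and 12 in those of TetLowProg. Among the 13 protein genes it was 6 or 7 in every library. The group means for all 37 were 9.67 ± 1.15, 10 ± 2 and 11.7 ± 3.51 genes (SD, n = 3 each; exact p = 1.0, 0.6 and 0.7 for TetLowReg against TetHighProg, TetLowProg against TetHighProg and TetLowProg against TetLowReg).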

How the data were processed

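For each library the authors deposited raw counts per gene, in the layout of STAR's gene counts, and the submitters' processing notes name STAR 2.7.6a, featureCounts and GRCm39. The annotation release and read length are not given in the sources used here. Reads at several places, ambiguous between genes or outside genes are not in the counts. The unstranded column was used. Positions came from GENCODE M39, which matched 28645 of 32976 genes, and nuclear copies from a search of GRCm39 with 31-base seeds.

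For shares and ratios, exact permutation tests (two-sided, SciPy 1.17.1) were used. The labels give no batch. The test across genes was the quasi-likelihood test of edgeR 4.0.16 (TMM factors, default filter, 3 groups in 1 model, prior count 2) with Benjamini-Hochberg adjustment over all genes tested. Alternatives used DESeq2 1.42.0 and limma 3.58.1. Log2 CPM used a pseudocount of 1. Fold changes are given for any member called and for the tested member with the highest mean share in the rRNAs and in each complex. Nuclear genes were named as the 2 with the highest mean share of each pathway list. The members and lists were chosen with earlier results of these data known. P-values measure the spread between libraries, which may be partly technical. The tests were tried before use on data simulated for TetLowReg against TetHighProg, with 200 genes changed 16-fold. At the spread estimated from these libraries edgeR and limma-voom recovered none of them. DESeq2 recovered 26 and made 418 false calls. At a low spread each tool recovered all 200.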

Additional observations from a re-analysis of the deposited data

Results flagged for a closer look

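For 14 of the 37 genes the 2 strand-specific columns together held more counts than the unstranded column, and 3 of these were at 0 in the unstranded column. mt-Tw had 127 counts and mt-Ty 1410 counts in the 2 strand-specific columns together over 9 libraries, with 0 in the unstranded column, and 1381 of those of mt-Ty were in TetLowProg replicate 9. mt-Atp6, inside the nuclear copy on chromosome 1, had 5 counts in those columns. All 3 exceed the limit of 3 counts that a count of 0 allows. Both tRNA genes adjoin genes of the opposite strand. Summing the strand-specific columns of all tRNA genes changed the tRNA differences as given with the tRNA share, and the part of these 2 genes in that was not tested.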

How the results depend on the processing

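No paired analysis was possible because the groups share no replicate number in the labels, which do not tie libraries of the progressing tumors to each other. Beside leaving out single libraries, 141 summary values kept their direction and their side of the threshold under the alternatives, 13 turned, 4 counts of calls moved and 1 difference went to 0. Why they did was not tested. For TetLowProg against TetHighProg, the share of all mitochondrial genes turned to 0.181 points over all reads, 0.393 without mt-Cytb and 1.19 without the 4 libraries of few genes, and that of protein genes to 0.149 and 0.811 under the last 2. Leaving out 1 library gave -1.77 to 0.580 points for all mitochondrial genes (above 0 without TetHighProg replicate 1 or TetLowProg replicate 9 or 10) and -2.02 to 0.259 for protein genes (the same libraries). The tRNA share for TetLowReg against TetHighProg turned to 0.000597 points in the stranded columns and ran from -0.000933 to 1.33e-05 with 1 library left out. For TetLowProg against TetHighProg it was -0.18 on the log2 scale and ran from -0.000673 to 0.000796, and against TetLowReg from -9.98e-05 to 0.00128 (below 0 without TetLowProg replicate 9).

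For TetLowReg against TetHighProg, the values without the 4 libraries of few genes turned to -9.00 points for the rRNA share of mitochondrial counts, -3.52 for complex I and -5.29 for complex IV, and complex I was -1.11 without genes that hold copied 75-base windows, a setting that leaves mt-Nd1 alone of complex I beside mt-Cytb. Of the rRNAs it leaves mt-Rnr1 alone, with 4.53 points for TetLowProg against TetHighProg and 0.530 against TetLowReg. With 1 library left out they ran from -6.45 to 9.36, -7.12 to 8.87 and -1.72 to 6.69, each below 0 without TetLowReg replicate 6. Complex IV ran from -1.15 to 20.1 for TetLowProg against TetHighProg and from -5.02 to 16.2 against TetLowReg, below 0 without TetLowProg replicate 9. Complex IV without copied genes gave no value, since mt-Co1 itself holds copied windows. The log2 ratio to nuclear subunits was 0.62 without mt-Cytb and ran from -0.96 to 0.17 with 1 library left out for TetLowProg against TetHighProg. The number of mitochondrial genes found differed by -0.333 for TetLowReg against TetHighProg at a minimum of 100 counts, by 0.0 without the 4 libraries of few genes and by -0.667 to 1.33 with 1 library left out, and for TetLowProg against TetLowReg by 0.0 to 3.5 with 1 left out (0.0 without TetLowProg replicate 9).

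Calls were 2 for TetLowReg against TetHighProg with limma-voom (mt-Co1, log2 8.02, adjusted p = 0.0239, and mt-Cytb, 2.66, adjusted p = 0.0277) and 1 in the edgeR model of the 2 groups alone (mt-Cytb, 3.69, adjusted p = 5.09e-45). That model gave mt-Cytb an SE of 0.251, although its libraries overlapped between the 2 groups (exact permutation test on log2 CPM, p = 0.6). DESeq2 with poscounts called mt-Cytb for TetLowProg against TetHighProg (-3.90, adjusted p = 0.0479), and edgeR on 2 groups called it for TetLowProg against TetLowReg (-3.98, adjusted p = 5.19e-04). With 1 library left out, 0 to 1 were called, mt-Cytb without TetLowProg replicate 9 (3.46, TetLowReg against TetHighProg) and without TetHighProg replicate 2 or TetLowProg replicate 12 (-3.95 and -6.11, TetLowProg against TetLowReg), all by edgeR with adjusted p-values.

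Signs also turned for single genes. With poscounts they were -0.53 for mt-Cytb, -1.01 for mt-Nd4 and -0.71 for mt-Rnr2 (TetLowReg against TetHighProg), and -2.00 for mt-Co1 and -2.60 for mt-Rnr2 (TetLowProg against TetHighProg). In the latter comparison mt-Nd4 was 0.0384 with library size, 0.0851 with a strict filter and 0.0790 with 2 groups, and mt-Rnr2 was -0.17 without a filter. Leaving out 1 library gave -0.16 to 1.16 for mt-Co1, -2.66 to 0.0569 for mt-Cytb, -1.09 to 0.31 for mt-Nd4 and -0.10 to 0.55 for mt-Rnr2. Depth allowed shares down to 1.83e-05% in the smallest library, and the number of libraries kept every exact p at 0.1 or above.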
